A study of Mus musculus with 8 samples.

Results

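The genes described here are 40 genes of DNA replication and mitosis, chosen by name, out of 22880 genes counted in mouse soleus muscle by RNA sequencing. The list holds 17 S-phase genes, which license and copy DNA or supply its nucleotides, and 23 mitotic genes, which separate the copied chromosomes. Each gene was found in the count data by the Ensembl ID that carries its symbol, all 40 were found, and all 40 passed the filter on low counts. The control group was 4 male Dnm2 +/+ mice and the mutant group 4 male Dnm2 +/K562E mice, all 2 months old and on a C57BL/6 background (C57bl/6 J in the study's methods). Dnm2 encodes dynamin 2, a GTPase that cuts membranes during endocytosis, and the K562E substitution is known from dominant intermediate Charcot-Marie-Tooth neuropathy. The point mutation was placed in the endogenous gene by homologous recombination, with a LoxP site left in an intron of the mutant allele, so it was present in every cell type of the muscle and not only in muscle fibres. The study asked how muscle gene expression differed between the genotypes, and the comparison here is that of the S-phase with the mitotic genes within it. RNA came from whole muscle, in which fewer cells of a type and less RNA per cell cannot be told apart.

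Mature muscle fibres have left the cell cycle, so transcripts of this kind in muscle are usually attributed to the mononuclear cells between the fibres, such as satellite cells, macrophages, fibroblasts and endothelial cells. In a dividing cell, E2F transcription factors drive the genes of G1 and S phase, when CDC6 and CDT1 load the MCM helicase on origins and the polymerases copy DNA held to the sliding clamp PCNA. The mitotic genes are switched on later, in G2, through the cell cycle genes homology region (CHR), a short promoter element bound by the MuvB complex with MYBL2 and FOXM1, often together with a CCAAT box bound by NF-Y. The G2 genes supply CDK1 and its cyclins, the spindle, the checkpoint that watches it, and the machinery that splits the cell.

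The libraries held between 33407430 and 48832814 counts per mouse. Normalization factors of the trimmed mean of M values (TMM) were 0.914 to 0.959 in controls and 1.04 to 1.10 in mutants, so scaling bears on every fold change. Fold changes are given as log2FC, the log2 of the mutant over the control level with its standard error (SE). With library size as the sole scaling, the median of all genes tested shifted from 0.0074 to 0.22, and the split of called genes went from 1806 higher and 1099 lower to 2865 higher and 564 lower. All 9 muscle fibre markers were detected in every mouse, with a summed level of 69365 to 76337 normalized CPM (counts per TMM-scaled library size) in controls and of 49700 to 55429 in mutants. Dnm2 itself stood at 59.2 to 68.9 CPM in controls and 70.3 to 76.1 in mutants, a log2FC of 0.15 with an adjusted p of 0.0909 (edgeR), which is no check of a point mutation.

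Promoter sequences are shown because the elements named above are elements of promoters, and the sequences were not used to choose the genes. RefSeq (GRCm38.p6) gave a window of 250 bases before to 50 after the transcription start for 33 of the 40 genes. It had none for Mcm4, Gins2, Ccne2, Ccna2, Aurkb, Kif20a and Tpx2. For Cdc6, Mcm7 and E2f1 the windows lay wholly inside the gene as annotated in GENCODE M21, so bases before that annotated start were not searched. The letters searched on both strands were TTTGAA for the CHR, CCAAT for the CCAAT box and TTTGGCGC, TTTGCCGC, TTTCGCGC or TTTCCCGC for an E2F site. A match of these letters is a description of the sequence and not evidence of binding. The CHR letters were present in 14 of 19 mitotic windows (73.7%), in 1 of 14 S-phase windows (7.14%, Mcm2) and in 20.2% of the windows of all 27025 genes. All 14 mitotic windows with a CHR match also held a CCAAT box, a combination found in 7.97% of all genes. The mitotic windows without CHR letters were those of Birc5, Bub1, Ccnb1, Cenpe and Nusap1, and those of Birc5 and Nusap1 held none of the letters searched. E2F site letters were present in 6 of 14 S-phase windows (42.9%; Cdc6, Cdt1, Mcm3, Mcm5, Mcm6 and Mcm7), in 1 of 19 mitotic windows (5.26%, Cdk1) and in 2.6% of all genes. The CCAAT box alone stood in 17 of 19 mitotic windows (89.5%), in 8 of 14 S-phase windows (57.1%) and in 41.1% of all genes.

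The following 220 bases, from 200 before to 20 after the start and read 5′ to 3′ on the gene's own strand, are those of 4 mitotic genes. Each of these 4 genes held both CHR and CCAAT box letters. Capitals mark CHR and CCAAT box letters on either strand. Prc1 (chr7:80294251-80294470, plus strand) held 1 CHR at position -5 and a CCAAT box at -37, counted from the start. RefSeq gave another start for Prc1, from which the same letters stood at -30 and -62. Kif11 (chr19:37376182-37376401, plus strand) held both on the opposite strand, at -19 and -45. Ccnb2 (chr9:70421535-70421754, minus strand) held CHR letters at -167 and 5 and CCAAT boxes at -87, -54 and -21, and Mki67 (chr7:135716360-135716579, minus strand) held CHR letters at -116 and -98.
Prc1: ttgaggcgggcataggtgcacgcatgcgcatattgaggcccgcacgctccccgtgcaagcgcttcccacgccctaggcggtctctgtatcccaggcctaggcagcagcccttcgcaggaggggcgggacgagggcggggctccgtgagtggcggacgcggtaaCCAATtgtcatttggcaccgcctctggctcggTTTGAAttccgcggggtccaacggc
Kif11: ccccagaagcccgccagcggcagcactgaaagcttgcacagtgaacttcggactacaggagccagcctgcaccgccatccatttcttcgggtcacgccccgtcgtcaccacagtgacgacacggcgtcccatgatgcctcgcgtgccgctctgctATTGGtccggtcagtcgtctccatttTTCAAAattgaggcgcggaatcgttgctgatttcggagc
Ccnb2: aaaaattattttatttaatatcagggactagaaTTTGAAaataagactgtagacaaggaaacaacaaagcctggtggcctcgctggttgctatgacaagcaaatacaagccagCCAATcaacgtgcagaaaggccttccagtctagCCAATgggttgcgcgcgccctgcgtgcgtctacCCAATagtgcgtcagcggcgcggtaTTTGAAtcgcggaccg
Mki67: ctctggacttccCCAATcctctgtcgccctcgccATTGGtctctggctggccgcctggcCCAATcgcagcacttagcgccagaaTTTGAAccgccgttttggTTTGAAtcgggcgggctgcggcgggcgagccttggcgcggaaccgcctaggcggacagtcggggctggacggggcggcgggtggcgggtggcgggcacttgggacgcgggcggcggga

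The same stretch is given for 4 S-phase genes with different behaviour in the mutant mice, with E2F site letters also in capitals. Mcm6 (chr1:128359686-128359905, minus strand) held E2F site letters at -110, -106 and -47, the first pair overlapping on opposite strands. Mcm2 (chr6:88898761-88898980, minus strand) was the S-phase gene with CHR letters, at -70. Rrm1 (chr7:102441495-102441714, plus strand) held CCAAT boxes at -91 and -45. Ccne1 (chr7:38107471-38107690, minus strand) held none of the letters searched.
Mcm6: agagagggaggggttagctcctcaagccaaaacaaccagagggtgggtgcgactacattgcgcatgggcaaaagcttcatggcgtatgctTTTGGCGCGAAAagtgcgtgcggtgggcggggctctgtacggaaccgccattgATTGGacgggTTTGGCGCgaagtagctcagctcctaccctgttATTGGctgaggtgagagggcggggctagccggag
Mcm2: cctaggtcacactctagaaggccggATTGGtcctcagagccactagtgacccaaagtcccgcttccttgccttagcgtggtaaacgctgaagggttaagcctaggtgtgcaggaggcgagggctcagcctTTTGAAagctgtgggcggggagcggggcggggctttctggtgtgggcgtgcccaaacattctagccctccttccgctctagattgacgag
Rrm1: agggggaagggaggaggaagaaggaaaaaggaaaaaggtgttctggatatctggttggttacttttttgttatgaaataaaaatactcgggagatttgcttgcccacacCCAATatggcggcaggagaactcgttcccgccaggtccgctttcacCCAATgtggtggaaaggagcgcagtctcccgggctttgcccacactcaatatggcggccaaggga
Ccne1: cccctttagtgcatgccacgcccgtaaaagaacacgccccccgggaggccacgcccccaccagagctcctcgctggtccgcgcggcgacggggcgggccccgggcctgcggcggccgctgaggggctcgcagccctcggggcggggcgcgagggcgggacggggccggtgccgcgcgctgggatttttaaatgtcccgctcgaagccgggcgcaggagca

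Of the 40 genes, 15 (37.5%) were called higher in Dnm2 +/K562E soleus and 0 were called lower, a call being an adjusted p under 0.05 together with a log2FC of 0.58 or more in size. Of all 14001 genes tested, 12.9% were called higher and 7.85% lower by the same rule. The mitotic genes held 11 of the 15 calls (11 of 23, 47.8%) and the S-phase genes 4 (4 of 17, 23.5%). By the adjusted p alone, 16 of the 40 rose, 2 fell and 22 did not pass the test, beside 22.2% of all genes that rose and 21.7% that fell. Both genes that fell, Mcm2 and Rrm1, were S-phase genes. The median log2FC was 0.84 over the mitotic genes, 0.30 over the S-phase genes and 0.0074 over all genes tested. The point estimate was above 0 in 22 of 23 mitotic genes and in 11 of 17 S-phase genes. All 4 mutant mice lay above all 4 controls in 6 of 23 mitotic and 5 of 17 S-phase genes, and this happened in 20.6% of all genes, so the mitotic count of non-overlapping genes was near the background. All 4 mutants lay below all controls in 2 S-phase genes and in 20.5% of all genes.

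Among the S-phase genes, the 6 subunits of the MCM helicase, the ring that unwinds DNA at the fork, did not move together. Mcm2 (chr6:88883474-88898780) fell and Mcm6 rose. Mcm2 was at 5.30, 6.47, 6.00 and 5.36 CPM in controls 1 to 4 and at 3.99, 4.18, 3.89 and 4.62 CPM in mutants 1 to 4. Every mutant lay below every control, with a mean of 5.78 ± 0.559 (SD, n = 4) against 4.17 ± 0.324 CPM and a log2FC of -0.47 (SE 0.13, adjusted p = 0.0106, edgeR), short of the fold threshold. With library size as the sole scaling Mcm2 did not pass (-0.26, adjusted p = 0.0996, edgeR). Mcm6, whose values were singled out after they were seen, was at 8.88, 10.2, 7.35 and 9.74 CPM in controls and 11.3, 11.6, 12.6 and 12.2 CPM in mutants. Its log2FC was 0.40 (SE 0.11, adjusted p = 0.0133, edgeR), again without overlap and short of the fold threshold.

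Mcm7, the helicase subunit with the highest level per kilobase of exon, was at 13.3, 7.54, 7.55 and 8.18 CPM in controls and at 10.1, 13.8, 10.9 and 10.3 CPM in mutants. Control 1 stood far above the other 3 controls and the groups overlapped, and its log2FC of 0.30 did not pass the test (adjusted p = 0.214, edgeR). Without control 1 it was 0.53 and passed (adjusted p = 0.00595, edgeR), as it did with library size as the sole scaling (0.52, adjusted p = 0.0442, edgeR). Mcm3 (0.03), Mcm4 (-0.02, or 0.20 with library size alone) and Mcm5 (0.36) had log2FC values that also did not pass, though Mcm5 did with library size alone (0.58, adjusted p = 0.038, edgeR). The role group had a median log2FC of 0.16, with 0 of 6 called in either direction.

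The 3 genes that load the helicase and start the fork were higher in the mutants by point estimate, and 2 were called. Cdt1 (chr8:122568015-122573554), the loading factor, was at 1.13, 1.10, 1.32 and 0.942 CPM in controls and 2.28, 2.07, 2.19 and 1.54 CPM in mutants. No value overlapped, and the mean went from 1.12 ± 0.156 to 2.02 ± 0.332 CPM, a log2FC of 0.84 (SE 0.21, adjusted p = 0.00871, edgeR). Gins2, a subunit of the GINS complex that activates the helicase, was at 0.387, 0.564, 0.448 and 0.353 CPM in controls and 0.978, 0.814, 0.763 and 0.973 in mutants. It rose by 1.00 on the log2 scale (adjusted p = 0.014, edgeR), from only 12 to 36 counts per mouse, and 67.3% of its exon length overlaps exons of Gse1 on the other strand. Cdc6, which loads the helicase with Cdt1, had a log2FC of 0.82 that just missed the threshold (adjusted p = 0.0514, edgeR) and passed without control 4 (1.07, adjusted p = 0.0206, edgeR).

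The clamp and the enzymes of nucleotide supply showed no call in either direction, with a median log2FC of -0.11. Rrm1 (chr7:102441695-102469771), the large subunit of ribonucleotide reductase, was at 29.0, 25.8, 28.1 and 27.3 CPM in controls and at 20.5, 18.2, 17.2 and 20.3 CPM in mutants. Every mutant lay below every control, and the mean fell from 27.5 ± 1.39 to 19.1 ± 1.59 CPM (log2FC -0.53, SE 0.08, adjusted p = 0.000288, edgeR). Rrm2, the subunit made in S phase, was at 3.42 ± 0.539 CPM in controls and 3.18 ± 0.684 in mutants, and its log2FC of -0.11, or 0.11 with library size alone, did not pass the test. Pcna (chr2:132249162-132253314), the sliding clamp and the most abundant of the 40 genes per kilobase, was at 27.9, 29.0, 29.2 and 26.2 CPM in controls and 27.2, 25.4, 26.0 and 26.1 CPM in mutants. The groups overlapped and the log2FC was -0.10 (SE 0.06, adjusted p = 0.209, edgeR), or 0.11 with library size as the sole scaling. Tyms, which makes thymidylate, and Tk1, which salvages thymidine, had log2FC values of 0.62 and -0.35 that did not pass, though Tyms did with library size alone (adjusted p = 0.0376, edgeR).

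The G1/S regulators held the gene with the largest fold change of the 40. Ccne1 (chr7:38097984-38107534), cyclin E1, the partner of CDK2 at the entry into S phase, was at 0.417, 0.386, 0.291 and 0.206 CPM in controls and 1.60, 2.14, 1.60 and 1.19 CPM in mutants. The lowest mutant was above the highest control by more than the whole range of the controls, and the mean went from 0.325 ± 0.0957 to 1.63 ± 0.389 CPM, 5.01-fold (log2FC 2.32, SE 0.31, adjusted p = 0.000169, edgeR). The raw counts behind it were 14, 13, 13 and 7 in controls and 59, 92, 67 and 44 in mutants. Its paralog Ccne2, more abundant in controls at 6.23, 4.60, 5.04 and 4.06 CPM, was at 5.79, 4.62, 5.41 and 6.65 CPM in mutants. These ranges overlapped, and the log2FC of 0.17 did not pass the test (adjusted p = 0.421, edgeR). E2f1, the transcription factor that drives S-phase genes, rose by 0.82 on the log2 scale (SE 0.20, adjusted p = 0.00727, edgeR), with controls at 1.41 to 2.12 CPM and mutants at 2.55 to 3.56 CPM.

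**Figure D1:**
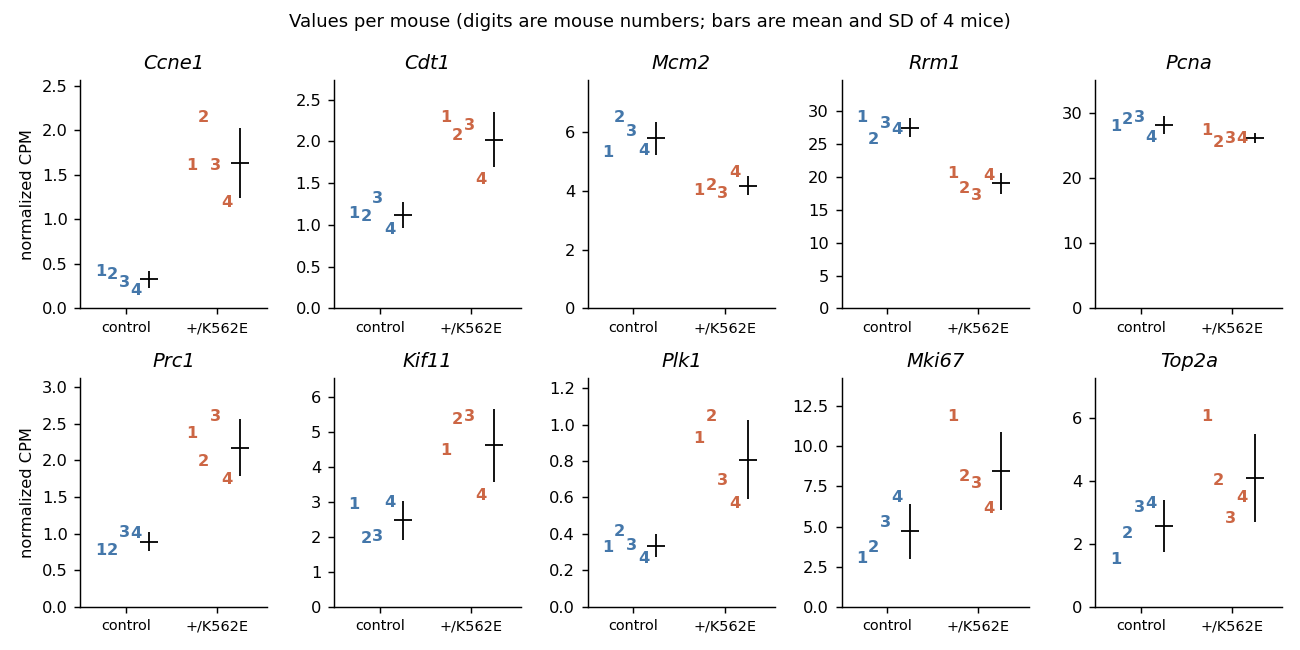
Normalized CPM in each mouse for 5 S-phase genes (top row) and 5 mitotic genes (bottom row), with the digit giving the mouse number and the bar the mean and SD of 4 mice per genotype; each panel has its own axis from 0. Ccne1 and Cdt1 were higher and Mcm2 and Rrm1 lower in all 4 mutants, Pcna overlapped, and in Mki67 and Top2a mutant 1 stood highest while the other mutants lay closer to controls 3 and 4.

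Among the mitotic genes, CDK1 and its cyclins had log2FC values between 0.49 and 1.07, of which 1 of 4 was called. Ccna2, cyclin A2, which acts in S phase and early mitosis, was at 0.894, 1.28, 1.30 and 2.06 CPM in controls and 2.93, 2.21, 2.98 and 1.68 CPM in mutants. Mutant 4 lay below control 4, and the log2FC was 0.83 (SE 0.28, adjusted p = 0.0353, edgeR). Leaving out control 1, 2 or 3 or mutant 1, 2 or 3 in turn ended this call, with adjusted p between 0.0523 and 0.0997. Ccnb2, cyclin B2, was at 0.208, 0.653, 0.403 and 0.883 CPM in controls and 1.63, 0.674, 1.15 and 1.05 CPM in mutants, which overlapped (log2FC 1.07, SE 0.42, adjusted p = 0.0628, edgeR). It passed without control 4 or without mutant 2 (adjusted p = 0.028 or 0.0461, edgeR). Cdk1, the mitotic kinase, and Ccnb1, cyclin B1, had log2FC values of 0.49 and 0.73 that did not pass, and control 1 had 2 counts of Ccnb1 where the other mice had 22 to 57.

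The mitotic kinases and the passenger complex gave 1 call of 4. Plk1 (chr7:122159439-122169873), a kinase that acts on centrosomes and kinetochores, was at 0.328, 0.416, 0.336 and 0.265 CPM in controls and 0.923, 1.05, 0.692 and 0.568 CPM in mutants. No value overlapped, and the log2FC was 1.26 (SE 0.32, adjusted p = 0.00879, edgeR). Aurka, the spindle pole kinase, was at 0.953, 0.535, 0.672 and 1.74 CPM in controls and 1.47, 0.767, 0.978 and 0.730 CPM in mutants, with control 4 the highest of all 8 mice and a log2FC of 0.02 (adjusted p = 0.971, edgeR). Aurkb and Birc5, the kinase and survivin of the chromosomal passenger complex, had log2FC values of 0.84 and 0.99 that did not pass (adjusted p = 0.275 and 0.053, edgeR), though Birc5 did without mutant 2 (adjusted p = 0.0428, edgeR).

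The spindle checkpoint and anaphase promoting complex genes also gave 1 call of 4. Bub1b, which encodes the checkpoint protein BUBR1, was at 0.864, 0.653, 0.403 and 1.27 CPM in controls and 2.55, 2.42, 1.48 and 1.14 CPM in mutants. Mutant 4 lay below control 4, and the log2FC was 1.26 (SE 0.38, adjusted p = 0.0194, edgeR). Without control 2, mutant 1 or mutant 2 its adjusted p was 0.0516, 0.0625 or 0.0575. Bub1, a checkpoint kinase, had the largest mitotic point estimate, 1.48, from 0 to 21 counts per mouse, and did not pass (SE 0.62, adjusted p = 0.0765, edgeR). It passed in 3 of the 16 alternatives that tested it, among them without control 4 (adjusted p = 0.0289, edgeR) and with the exact test of edgeR. Cdc20, the activator of the anaphase promoting complex, was at 0.655, 1.63, 1.70 and 1.32 CPM in controls and 1.47, 2.35, 1.72 and 1.00 CPM in mutants, overlapping ranges with mutants 2 and 3 above every control and control 1 below every mutant, and a log2FC of 0.29 (adjusted p = 0.507, edgeR). Ube2c, its ubiquitin-conjugating enzyme, had a log2FC of 0.50 that did not pass from 33 to 71 counts, and 22.8% of its exon length overlaps Tnnc2, a troponin gene on the other strand with a mean of 123272 counts.

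Of the 3 centromere and kinetochore genes, 2 were called higher. Cenpf, a large kinetochore protein of G2 and mitosis, was at 0.417, 1.01, 0.537 and 1.77 CPM in controls and 3.04, 3.14, 2.19 and 1.51 CPM in mutants, with mutant 4 below control 4. Its log2FC was 1.42 (SE 0.42, adjusted p = 0.0176, edgeR), and without mutant 1 or 2 the adjusted p was 0.0508 or 0.0501. Cenpe, a kinetochore motor, rose by 0.82 on the log2 scale (SE 0.28, adjusted p = 0.0363, edgeR) without overlap, and the call was lost when control 1 or 2 or mutant 1, 2 or 4 was left out, or with no filter on low counts (adjusted p = 0.0521, edgeR). Cenpa, the histone H3 variant of the centromere, was the mitotic gene with a point estimate below 0. It was at 4.20, 3.24, 2.64 and 3.50 CPM in controls and 2.15, 3.58, 2.12 and 2.35 CPM in mutants, with mutant 2 among the controls and a log2FC of -0.41 (SE 0.22, adjusted p = 0.156, edgeR), or -0.62 without mutant 2 (adjusted p = 0.0346, edgeR).

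The spindle motors and midzone proteins were the role group with the most calls, 5 of 6. Prc1 (chr7:80294450-80316259), which bundles the midzone microtubules, was at 0.775, 0.772, 1.01 and 1.00 CPM in controls and 2.36, 1.98, 2.60 and 1.73 CPM in mutants. No value overlapped, and the mean went from 0.889 ± 0.133 to 2.17 ± 0.389 CPM (log2FC 1.28, SE 0.22, adjusted p = 0.000943, edgeR), the smallest p of the mitotic genes. Kif11 (chr19:37376403-37421859), the motor that pushes the spindle poles apart, was at 2.92, 1.96, 2.02 and 2.97 CPM in controls and 4.45, 5.35, 5.44 and 3.19 CPM in mutants, again without overlap (log2FC 0.91, SE 0.22, adjusted p = 0.00635, edgeR). Nusap1 and Tpx2, which bind spindle microtubules, rose by 1.08 and 0.70 on the log2 scale (adjusted p = 0.00592 and 0.0172, edgeR), both without overlap. Kif20a, a cytokinesis motor, rose by 0.93 with overlap (adjusted p = 0.0189, edgeR). Without mutant 1 the adjusted p of Tpx2 was 0.0575, and without control 2, mutant 1 or mutant 2 that of Kif20a was 0.0557, 0.0556 or 0.0599. Kif23, the motor of the centralspindlin complex, had a log2FC of 0.39 that did not pass.

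Mki67 (chr7:135689784-135716361), whose product Ki-67 coats mitotic chromosomes and is the standard marker of proliferating cells, was at 2.98, 3.71, 5.26 and 6.83 CPM in controls and 11.9, 8.11, 7.70 and 6.13 CPM in mutants. Mutant 4 lay below control 4, and the mean went from 4.70 ± 1.71 to 8.45 ± 2.43 CPM (log2FC 0.84, SE 0.26, adjusted p = 0.0228, edgeR). Without control 2 or without mutant 1 the adjusted p was 0.0662 or 0.0764. Top2a, the topoisomerase that untangles sister chromatids, was at 1.49, 2.32, 3.16 and 3.30 CPM in controls and 6.06, 4.02, 2.81 and 3.46 CPM in mutants. Control 1 was again the lowest and mutant 1 the highest, the groups overlapped, and the log2FC of 0.66 did not pass the test (SE 0.29, adjusted p = 0.0834, edgeR), though it did with library size alone (adjusted p = 0.0315, edgeR).

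Per kilobase of exon, the 40 genes were expressed at low levels in control soleus. Levels ran from 0.034 CPM per kb for Bub1, at the 0.93 percentile of the genes tested, to 11.7 CPM per kb for Pcna, at the 79.6 percentile. Rrm1 followed at 2.501 and Mcm7 at 2.07 CPM per kb, and Mki67 stood at 0.467. The median was 0.832 CPM per kb over the S-phase genes and 0.202 over the mitotic genes. The median biological coefficient of variation, the relative spread between mice that edgeR estimates, was 0.177 for S-phase and 0.272 for mitotic genes, and the median counts per mouse were 126 and 51.8.

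Across mice, the mean of the S-phase genes separated the genotypes by a small step and that of the mitotic genes by a larger and more variable one. The mean log2 CPM of the 17 S-phase genes was 1.75, 1.70, 1.60 and 1.64 in controls and 2.17, 1.99, 1.98 and 1.93 in mutants, without overlap (1.67 ± 0.0664 against 2.02 ± 0.107, n = 4 each). For the 23 mitotic genes it was -0.53, -0.13, 0.011 and 0.38 in controls and 1.10, 0.81, 0.66 and 0.42 in mutants, and control 4 and mutant 4 nearly met. The group means were -0.065 ± 0.374 and 0.75 ± 0.286, a difference of 0.81 against 0.35 for the S-phase genes. Not all S-phase role groups shared in this difference. Licensing and origin firing differed by 0.86 and the G1/S regulators by 1.05, both without overlap. The MCM helicase differed by 0.11 and the clamp and nucleotide supply by -0.096, and in both the genotypes overlapped. The mean of the mitotic minus that of the S-phase genes was -2.28, -1.83, -1.59 and -1.26 in controls and -1.07, -1.18, -1.32 and -1.51 in mutants, and these ranges overlapped.

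Summed CPM, which the abundant genes dominate, gave another view. The S-phase sum was 105.7 to 118.9 CPM in controls and 105.7 to 115.8 CPM in mutants, a ratio of means of 0.991. The mitotic sum was 23.03, 26.6, 30.1 and 37.7 CPM in controls and 60.5, 51.1, 45.2 and 37.2 CPM in mutants, a ratio of means of 1.65, with mutant 4 just below control 4. Pcna and Rrm1 were the largest terms of the S-phase sum.

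**Figure D2:**
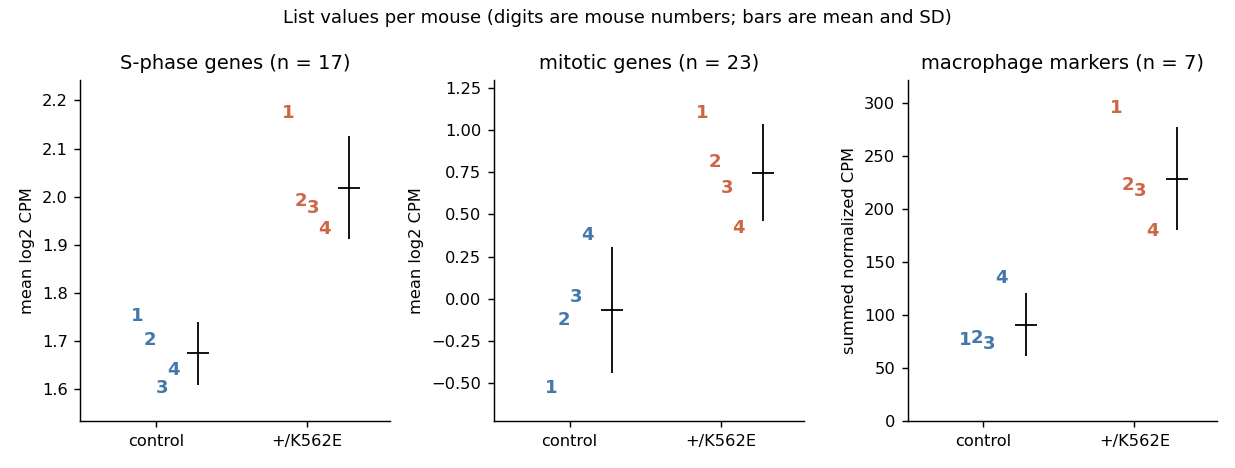
Mean log2 CPM of the 17 S-phase genes (left) and 23 mitotic genes (middle) and the summed normalized CPM of 7 macrophage markers (right) in each mouse, with the digit giving the mouse number and the bar the mean and SD of 4 mice. The mean log2 CPM axes do not start at 0. In the mitotic genes control 4 (0.38) and mutant 4 (0.42) nearly met, and the same mice were the highest control (135.5) and the lowest mutant (179.3) for macrophage markers. They were also the highest control (2853) and the lowest mutant (4013) for fibroblast markers, which are not drawn.

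The order of the mice was shared by many mitotic genes. Control 4 was the highest control in 12 of 23 and control 1 the lowest in 12, while mutant 1 was the highest mutant in 14 and mutant 4 the lowest in 15. Among the S-phase genes, control 1 was the highest control in 7 of 17 and mutant 1 the highest mutant in 9. The mitotic count rested on single mice. Without mutant 1, 4 mitotic genes were called higher (8 of the 40), and without control 2, 6 mitotic genes were called. Without mutant 2, Cenpa was called lower. The median log2FC of the mitotic genes stayed between 0.67 and 0.97 and that of the S-phase genes between 0.22 and 0.39 with any 1 mouse left out.

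Markers of the mononuclear cells of muscle moved with genotype, and their part in the results above was not tested. All 7 macrophage markers were called higher, with Lgals3 at a log2FC of 2.10 and Cd68 at 1.77, and their summed level was 76.4, 78.7, 72.8 and 135.5 CPM in controls and 295.6, 223.2, 217.3 and 179.3 CPM in mutants. Of 7 fibroblast markers 6 were called higher (1796 to 2853 CPM against 4013 to 5221 CPM, summed). Control 4 (2853) was the highest control and mutant 4 (4013) the lowest mutant, as for the macrophage markers. Of 9 satellite cell and myoblast markers, 2 were called higher and 2 lower (136.9 to 171.5 against 270.3 to 292.7 CPM, summed). The higher sum came from the 2 called higher, Myog and Chodl, whose mean went from 39.99 to 141.5 CPM, while Pax7 and Myf5 were the 2 called lower. Pax7, which marks satellite cells, went from 6.79 ± 1.89 to 1.64 ± 0.752 CPM, and Myog, the factor of myoblasts that differentiate, from 6.50 ± 1.46 to 55.8 ± 10.1 CPM. All 6 endothelial markers fell by the adjusted p and 1 was called lower (974.8 to 1018 against 690.6 to 793.9 CPM, summed). Schwann cell markers showed 0 of 6 called with overlapping sums (245.6 to 282.7 against 239.4 to 289.1 CPM). The sums of adipocyte markers also overlapped (29.3 to 164.4 against 50.04 to 96.3 CPM), with 0 of 4 called. Of 11 markers of T, B and NK cells and neutrophils, 1 passed the filter on low counts and was not called (0.761 to 2.18 against 1.42 to 3.80 CPM, summed), with Ly6g at 0 in all 8 mice. The 3 tested of 5 erythroid markers were called lower (451.7 to 769.7 against 209.7 to 444.0 CPM, summed), as were 2 of 9 muscle fibre markers, with 1 called higher. By the adjusted p alone, 6 of the 9 muscle fibre markers fell and 1 rose, beside 21.7% and 22.2% of all genes tested.

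Other genes of the same processes, from lists that overlap none of the 40, gave few calls among replication genes and more among mitosis genes. Of 40 other replication genes, 39 were tested, 1 was called higher (2.56%) and 1 lower, and the median log2FC was 0.03. Of all genes tested, 12.9% were called higher and 7.85% lower. By the adjusted p alone 2 of these replication genes rose and 7 fell (17.95%), beside 22.2% and 21.7% of all genes tested. The 2 called were Rfc5, a subunit of the clamp loader, from 1.62 ± 0.415 to 2.49 ± 0.26 CPM (log2FC 0.63, adjusted p = 0.0358, edgeR), and Rpa1, the large subunit of the protein that covers single-stranded DNA, from 51.3 ± 0.967 to 32.9 ± 2.14 CPM (-0.64, adjusted p = 2.17e-05, edgeR). Rfc5 was no longer called without control 2 or 3 or without mutant 2, 3 or 4, and 2 genes were called lower without control 3, control 4 or mutant 3. Of 48 other mitosis genes, 43 were tested, 14 were called higher (32.6%) and 1 lower, and the median was 0.76. Mad2l1, a checkpoint gene, went from 1.65 ± 0.0446 to 2.80 ± 0.419 CPM (log2FC 0.76, adjusted p = 0.00536, edgeR), and Hmmr, a spindle protein, from 0.395 ± 0.192 to 1.10 ± 0.152 CPM (1.46, adjusted p = 0.00962, edgeR). Pttg1, which encodes securin, was the one called lower, from 59.0 ± 3.79 to 37.2 ± 2.92 CPM (-0.67, adjusted p = 4.86e-05, edgeR). Without mutant 1 the count of other mitosis genes called higher was 6, without mutant 2 it was 7 and without control 2 it was 9.

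**Figure D3:**
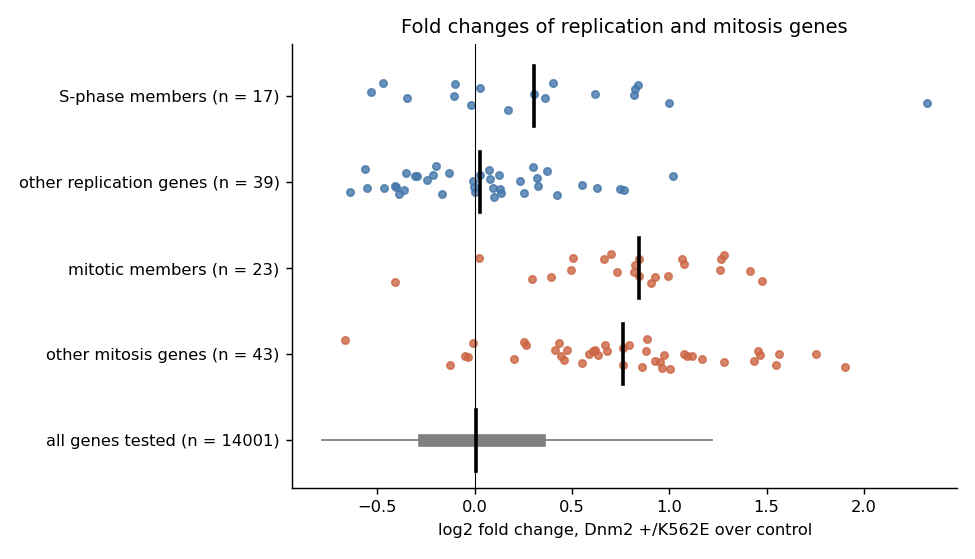
Log2FC of each gene of the S-phase and mitotic members and of the 2 lists of other replication and mitosis genes, with the median as a vertical line; the lowest row gives all genes tested, with the middle 50% as a thick and the middle 90% as a thin line. The medians were 0.30 and 0.03 for the replication lists and 0.84 and 0.76 for the mitotic lists.

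Among 18 transcription factors of the cell cycle and members of the RB family, 17 were tested and 3 were called higher (17.65%), 0 lower. Of all genes tested, 12.9% were called higher and 7.85% lower. E2f2, an activator like E2f1, had a log2FC of 1.12 (adjusted p = 0.00123, edgeR) and Lin37, a MuvB subunit, of 0.59 (adjusted p = 0.00675, edgeR). The other MuvB subunits and partners listed here, named after their values were seen, went different ways. Lin52 fell (-0.53, adjusted p = 0.0135, edgeR), Lin9 (-0.10), Lin54 (0.24) and Foxm1 (0.44) did not pass the test, and Mybl2 was below the filter on low counts. Without mutant 1, 1 gene of this list was called higher, and without control 2 or 4, 1 was called lower. Of 16 G1 cyclins, kinases and inhibitors, 15 were tested, 2 were called higher (13.3%) and 1 lower, near the shares of all genes tested. Without control 1, 2 were called lower. Ccnd2, cyclin D2, went from 36.0 ± 2.02 to 62.0 ± 4.41 CPM (log2FC 0.78, adjusted p = 1.08e-05, edgeR). Wee1, the kinase that holds CDK1 inactive, had a log2FC of 0.98 (adjusted p = 0.0112, edgeR), with mutant 2 at 4.44 CPM among the controls and the other mutants at 9.40 to 12.2 CPM. Cdkn1c, the CDK inhibitor p57, fell from 24.5 ± 5.38 to 11.3 ± 1.97 CPM (-1.12, adjusted p = 0.00034, edgeR). Histone genes were taken by symbols that start with Hist1h, Hist2h, Hist3h or Hist4h. Messages of such genes are mostly made in S phase and mostly lack a poly A tail. Of these 66 genes, 19 were tested, 0 were called higher and 4 lower, with Hist1h4h at -0.97 and Hist2h3c1 at -1.08. Histone copies share sequence, and their counts are uncertain.

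Reads of some of the 40 genes could belong to other genes. Exons of 6 genes overlapped a gene on the other strand by over 10% of their length. Besides Gins2 and Ube2c these were Kif20a (29.3%, Cdc23), Ccne2 (17.4%, Ints8), Ccna2 (12.5%, Exosc9) and Prc1 (11.1%, Rccd1). The stretch in Ube2c covers 74% of the exon length of Tnnc2, which had a mean of 123272 counts. Ube2c held 33 to 71 counts, so at most a small part of the reads of Tnnc2 was counted for it. Whether reads of Tnnc2 made up part of the Ube2c counts was not tested. Nor was it tested whether reads of the other overlapping genes were counted for these members. Stretches of 31 bases shared with transcripts of other genes made up 27.7% of Ccnb1, 26.8% of Mcm7, 25.5% of Cdc20, 23.3% of Pcna, 14.8% of Plk1 and 12% of Rrm2. Of the 28 genes outside these 12, 7 mitotic genes were called higher, as were 3 S-phase genes, Ccne1, Cdt1 and E2f1. Of all genes tested, 12.9% were called higher. The remaining calls, Ccna2, Kif20a, Plk1, Prc1 and Gins2, were of genes among these 12.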

How the data were processed

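RNA sequencing counts of soleus muscle were analysed for 4 control and 4 Dnm2 +/K562E mice, grouped by the genotype in the labels. Per the labels, the authors trimmed reads with Trimmomatic 0.33, aligned them with STAR 2.5.1b to GRCm38.p5 and counted them per gene with featureCounts. The deposited values are raw counts per gene and mouse, without normalization. A read over several genes counted for each, and the use of strand is not given in the sources used here. The paper's methods describe poly A enrichment and the labels a total RNA kit, which bears on histone messages.

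Of 22880 gene IDs, 22647 were matched to GENCODE M21 (GRCm38) for symbols and exon lengths. The members and lists were chosen with earlier results of these data known. Genes were filtered with filterByExpr (minimum count 10, minimum total 15), scaled by TMM and tested with the quasi-likelihood F-test of edgeR 4.0.16 in R 4.3.3, with Benjamini-Hochberg adjustment over all 14001 genes tested. Standard errors were derived from the F statistic. Normalized CPM are counts scaled by TMM-adjusted library size, and a prior count of 2 was added for log2 CPM. The p-values set the genotype difference against the spread between animals of the same genotype, 4 in each. The procedure was tested on simulated data.

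Values per mouse are given for the member with the smallest p and the one with the highest level per kb in each role group, for Mki67, Top2a, Pcna and Mcm2, for members called lower, and, chosen after their values were seen, for Mcm6 and Gins2. Of the other lists of cell cycle genes, the 2 called genes with the smallest p in each direction are named. The alternatives were edgeR's exact test, DESeq2 1.42.0, other scalings and filters, a replicate block, no fold threshold, each mouse left out in turn and, chosen after seeing the data, the removal of members with uncertain counts. Same-numbered mice of the 2 genotypes did not deviate together (correlations of -0.21, -0.085, 0.0095 and -0.17 by title number and 0.18, -0.10, -0.031 and -0.17 by description number), so the numbers were not taken to pair them. No 2 libraries of the same genotype agreed within sampling noise.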

Additional observations from a re-analysis of the deposited data

Results flagged for a closer look

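In 86 groups of 4 mice, one for each member or list value in each genotype, the highest or lowest mouse was set against the other 3 by Dixon's criterion, which chance alone exceeds in about 5% of groups, and 3 groups exceeded it. Mcm7 in control 1 was at 13.3 CPM, beside 7.54 to 8.18 CPM in the other controls, and without that mouse Mcm7 passed the test (log2 fold change 0.53, adjusted p = 0.00595, edgeR). Cdk1 in mutant 1 was at 1.33 CPM, beside 1.05 to 1.09 CPM in the other mutants. Cenpa in mutant 2 was at 3.58 CPM, beside 2.12 to 2.35 CPM in the other mutants, and without that mouse Cenpa was called lower.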

How the results depend on the processing

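With library size alone, 7 S-phase genes were called higher and their median log2 fold change was 0.52. In that setting 2865 of the 14001 genes tested were called higher, against 1806 with TMM. The median over all genes tested was 0.22, against 0.0074 with TMM. Among other lists, 2 replication genes were called higher and 0 lower, 25 mitosis genes higher and 0 lower, and 5 transcription factor and RB family genes higher. The sign of Mcm4 (0.20), Pcna (0.11) and Rrm2 (0.11) turned. With at least 10 counts in every mouse, which 33 members met, 7 other mitosis genes were called higher. Under the replicate block by title numbers, 9 members, 6 mitotic, 0 other replication and 8 other mitosis genes were called higher, with Gins2, Ccna2, Cenpe, Kif20a, Tpx2 and Mki67 no longer passing, and under the block by description numbers 9 other mitosis genes. With no fold threshold, 2 members, both S-phase, were lower, 2 other replication genes were higher and 7 lower, 5 transcription factor and RB family genes were higher and 2 lower, and 2 G1 genes were lower. Cdc6, Ccnb2, Birc5 and Bub1 passed the adjusted p with the exact test of edgeR, and Ccnb2 and Birc5 with DESeq2. Without members of uncertain counts, whose own calls dropped out with them, 7 mitotic genes were called higher.

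With any 1 mouse left out, 8 to 18 members were called higher and 0 to 1 lower, with 4 to 5 S-phase genes higher, 4 to 13 mitotic genes higher and 0 to 1 mitotic genes lower. The S-phase median was 0.22 to 0.39, the mitotic median 0.67 to 0.97 and their difference 0.29 to 0.69. Of the other lists, 0 to 1 replication genes were higher and 1 to 2 lower, 6 to 18 mitosis genes higher, 1 to 3 transcription factor and RB family genes higher and 0 to 1 lower, 1 to 2 G1 genes lower, and 0 to 1 histone genes higher. Log2 fold changes crossed 0 for Mcm3 (-0.032 to 0.088), Mcm4 (-0.13 to 0.12), Rrm2 (-0.21 to 0.023) and Aurka (-0.23 to 0.44). The cause of these changes was not tested. Ccne1, Cdt1, E2f1, Kif11, Nusap1, Plk1, Prc1, Mcm6 and Rrm1 passed the adjusted p in every alternative that tested them. Counts were low in the mitotic genes, with a median of 51.8 per mouse.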
